A study of Pimephales promelas with 32 samples.

Results

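A group of 242 gene models had a lower mean level in whole fathead minnow larvae exposed to either of 2 toxic chemicals than in control larvae. The group was drawn from the 26150 gene models of the count table. Levels are given as CPM, the count of a gene per 1000000 counts of its larva. The models were chosen by 3 conditions on the measured values. In the first, the mean raw count over all 32 larvae was at least 50 and below 10000, which 16457 models met. In the second, the ratio of mean CPM to the control mean was at most 0.77 for each chemical. Of the models in the count range, 3304 met that limit for bifenthrin, 996 met it for copper sulfate and 617 met both. In the third, at least 5 larvae of each exposed group lay below the lowest control larva, which left 242. Their lower levels against control are therefore a description of the choice and are given without a test.

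The larvae of Pimephales promelas, a small freshwater fish used in toxicity testing, fell into 3 groups. They comprised 11 controls without either chemical, 10 larvae in bifenthrin at 3.2 µg/L and 11 larvae in CuSO4 at 40 µg/L. Every group, the controls included, received 0.002% DMSO in its water and was sampled at 48 h. Larvae were held at 25 °C, 10 to a beaker of 100 mL, in 5 beakers per treatment. The age label reads 4 days after fertilization and 48 h after hatching. The treatment protocol reads 96 h after hatching, a difference that was not resolved here. RNA was taken from each whole larva and 250 ng entered a library that selects polyadenylated RNA. The protocol has several larvae of a group come from each beaker, but which larvae shared a beaker is not labelled. The p-values below treat larvae as separate, and would be too small where larvae of 1 beaker resemble each other.

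Bifenthrin is a pyrethroid insecticide. Pyrethroids hold voltage-gated sodium channels open in nerve and muscle and cause repeated firing. Dissolved copper is taken up at the gill, where it interferes with sodium uptake, and excess copper inside cells promotes oxidative damage. In whole-body RNA, fewer cells of a type and less RNA per cell cannot be told apart.

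The larvae had total counts between 10655113 and 17993699. The groups were spread over 2 sequencing lanes, with 6 control, 5 bifenthrin and 5 copper sulfate larvae in lane 6 and 5, 5 and 6 in lane 7. The 242 models had mean counts from 51.0 to 2798, with a median of 140.4. All 242 passed the filter on low counts that left 21174 models for testing. On library totals, the median log2 ratio to control over the 16457 models in the count range was -0.09 for bifenthrin and -0.08 for copper sulfate. With trimmed mean of M-values (TMM) scaling these medians were -0.02 and -0.01.

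The chosen genes stood lower, relative to controls, with bifenthrin than with copper sulfate. The ratio of the bifenthrin mean to the control mean ran from 0.174 to 0.768, with a median of 0.474 and quartiles of 0.325 and 0.605. The copper sulfate ratio ran from 0.397 to 0.769, with a median of 0.711 and quartiles of 0.674 and 0.738, so that most members sat just under the limit for copper sulfate. A ratio of 0.5 or less was found for 133 members with bifenthrin and for 5 with copper sulfate. The median log2 ratio was -1.08 for bifenthrin and -0.49 for copper sulfate. In 150 members all 10 bifenthrin larvae lay below the lowest control larva. In 0 members did all 11 copper sulfate larvae do so, and 6 members had 10 of the 11 there. For copper sulfate, 53 members met the condition on single larvae with exactly 5 of them. Larvae below the lowest control were a condition of the choice, and the same counts over all tested models are not given here. Nothing is read from these counts. In the edgeR fit of all genes, bifenthrin against control was called lower at an adjusted p under 0.05 for 237 members and 20.2% of all tested models. Copper sulfate against control was called lower for 123 members and 1.99% of all tested models. Both contrasts entered the choice of members, and nothing is read from these 2 counts.

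**Figure D1:**
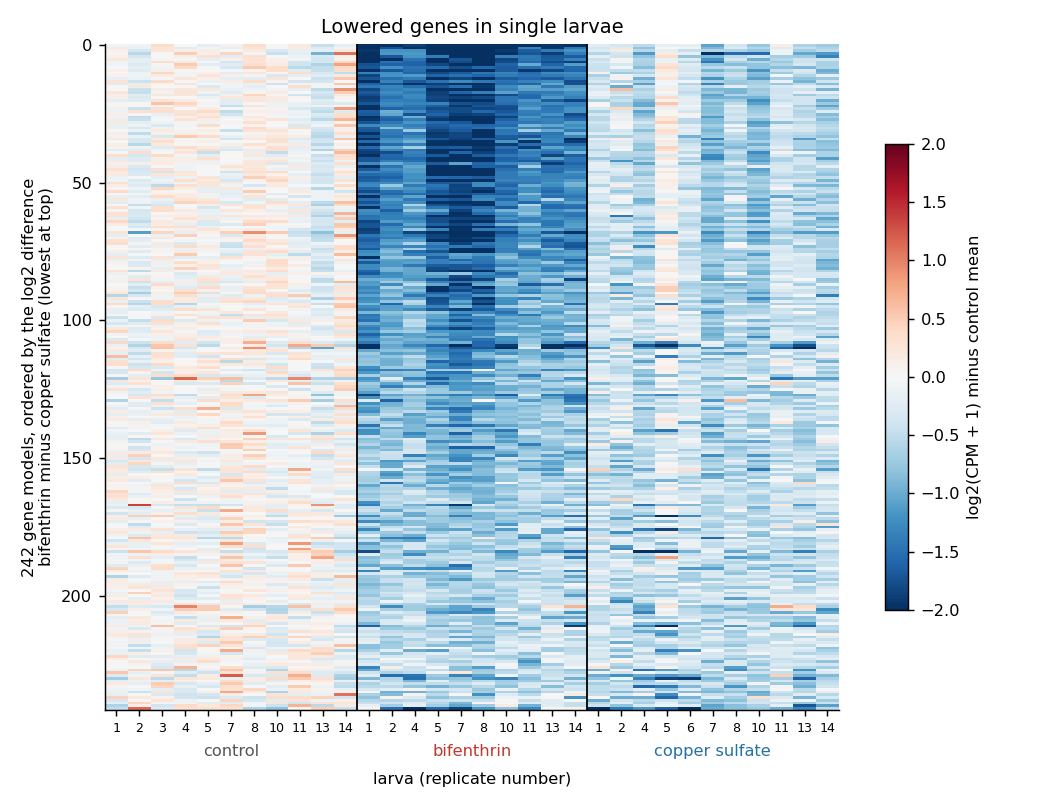
Level of each of the 242 gene models (rows) in each of the 32 larvae (columns, numbered by replicate within group) as log2(CPM + 1) minus the mean of the control larvae, with colours capped at 2 in either direction. Models are ordered by their difference between the chemicals, and the upper models are deep blue for bifenthrin and pale for copper sulfate, with copper sulfate replicate 5 close to the controls.

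The table gives UniProt accessions for most members but no gene symbols or functions, so members are named by model number and accession. The lowest bifenthrin ratio belonged to FMg001071 (accession Q503X5). FMg001071 ran from 4.22 to 20.2 CPM in controls (median 9.31), from 0.377 to 3.54 with bifenthrin (median 1.61) and from 1.108 to 10.3 with copper sulfate (median 3.91). All bifenthrin larvae lay below the control range, whereas 6 of the 11 copper sulfate larvae did. Its ratios to control were 0.174 and 0.524. FMg015439 (A3KMS0) was much steadier within groups. It ran from 18.4 to 33.1 CPM in controls (median 25.2), from 3.83 to 6.32 with bifenthrin (median 5.05) and from 11.8 to 27.99 with copper sulfate (median 19.6). The bifenthrin range lay below both other ranges, and the copper sulfate range overlapped that of the controls.

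FMg003971 (Q5RIC5) had the same order of groups. It ran from 29.8 to 43.5 CPM in controls (median 34.8), from 4.63 to 13.7 with bifenthrin (median 7.76) and from 18.8 to 35.6 with copper sulfate (median 27.5). Bifenthrin larvae again lay apart from both other groups. FMg015232 (Q6NYY4) had a median of 7.59 CPM in controls, 1.73 with bifenthrin and 4.41 with copper sulfate. Its highest copper sulfate larva, replicate 5 at 10.1 CPM, lay just above the highest control at 10.0 CPM, and the other 10 reached at most 6.70 CPM. FMg008519 (Q5I9I6) had medians of 11.1 CPM in controls, 2.60 with bifenthrin and 6.61 with copper sulfate. All bifenthrin larvae and 9 copper sulfate larvae lay below its control range.

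The members with the lowest copper sulfate ratios differed from these, since in 3 of the 5 the copper sulfate ratio was close to or below the bifenthrin ratio. FMg018248 (P17561) had the lowest ratio of the group to copper sulfate, 0.397. It ran from 17.8 to 70.9 CPM in controls (median 32.5), from 6.09 to 33.2 with bifenthrin (median 13.0) and from 6.57 to 21.8 with copper sulfate (median 13.8). Control larvae spread widely, 9 copper sulfate larvae lay below all of them, and 6 bifenthrin larvae did. FMg023278 (P98088) ran from 4.52 to 11.9 CPM in controls (median 9.28), from 2.16 to 6.14 with bifenthrin (median 3.92) and from 1.42 to 7.48 with copper sulfate (median 4.203). The bifenthrin range lay inside the copper sulfate range, and both overlapped the low controls.

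FMg014598 (A9ZPE5 and F1QP63) had medians of 4.22 CPM in controls, 2.799 with bifenthrin and 2.24 with copper sulfate. Its control range, 3.02 to 13.4 CPM, overlapped both exposed groups. FMg018624 (A8E4T1) had medians of 16.3 CPM in controls, 3.55 with bifenthrin and 6.48 with copper sulfate. FMg016445 (E7F2E3) ran from 79.4 to 204.8 CPM in controls (median 118.5), from 20.1 to 79.9 with bifenthrin (median 35.7) and from 14.3 to 103.4 with copper sulfate (median 56.5). Copper sulfate replicate 5, among the highest of its group for many members, was the lowest here at 14.3 CPM.

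**Figure D2:**
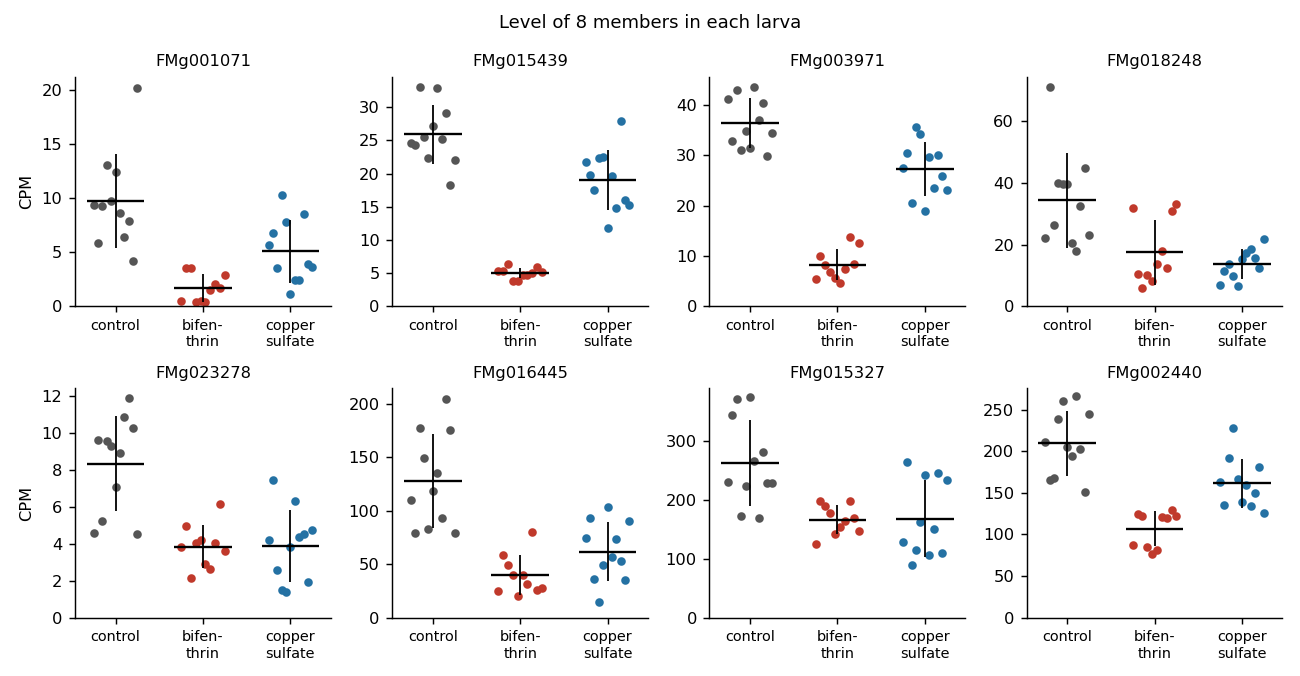
CPM in each larva (points) of 8 named members in control, bifenthrin and copper sulfate larvae, with the group mean (horizontal line) and SD (vertical line). Bifenthrin larvae lie apart from both other groups in FMg015439 and FMg003971, and the exposed groups overlap in FMg018248, FMg023278 and FMg015327.

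The contrast of bifenthrin with copper sulfate was not itself a condition of the choice, but the rule bounded both ratios from above in the same larvae. The same limit held for both chemicals. Among the members the copper sulfate ratios lay mostly near it, and the bifenthrin ratios ran far lower. The part of the choice in an excess of members lower in bifenthrin was not tested, and the counts are a description. They come from edgeR's quasi-likelihood test over all 21174 models, with lane as a covariate. Of the 242 members, 160 had lower levels with bifenthrin than with copper sulfate at an adjusted p under 0.05, or 66.1%, and 17.1% of all tested models were. The test called 0 members higher in bifenthrin, where 14.9% of all tested models were called higher. At an unadjusted p under 0.05 edgeR gave 171 members lower and 0 higher. Of the 16456 tested models in the count range, 4073 were lower and 3456 higher at that p. DESeq2 and limma-voom also called 0 members higher after adjustment, where 3412 of 21166 and 3232 of 21174 tested models were called higher. The log2 fold change was negative in 232 members and positive in 10. Over the 16456 tested models in the count range it was negative in 8697 and positive in 7759. Its median was -0.56 over the members and -0.02 over all tested models. In 53 members, or 21.9%, the whole bifenthrin range lay below the whole copper sulfate range, which held for 1.42% of all tested models. In 0 members did it lie above, against 2.26% of all tested models.

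**Figure D3:**
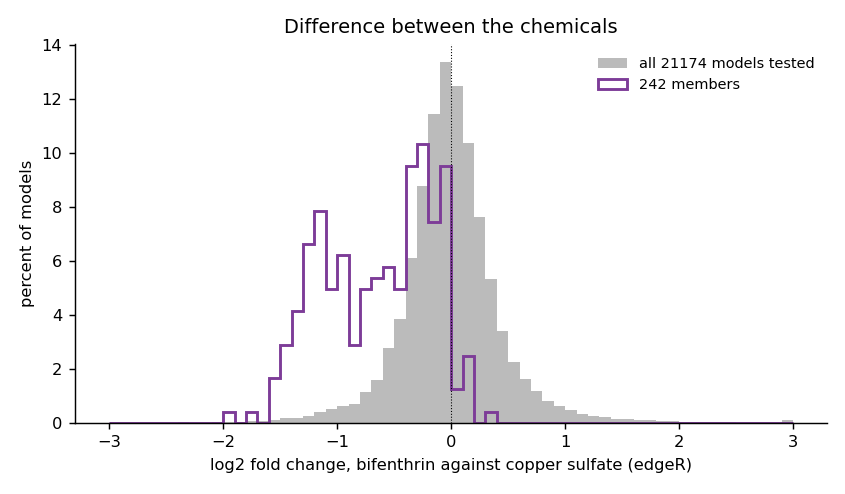
Distribution of the edgeR log2 fold change of bifenthrin against copper sulfate for the 242 members (purple outline) and all 21174 tested models (grey), as the percent of models in each bin, with values beyond 3 in the end bins. The members extend to the left, with a median of -0.56 against -0.02, and show a broad shoulder near -1.1.

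Single genes are given with their p from the same fit. The smallest in this direction belonged to FMg015439, FMg003971 and FMg000991. FMg015439 was lower in bifenthrin by a log2 fold change of -1.92 ± 0.13 (SE), with an adjusted p in edgeR of 3.49e-13. FMg003971 differed by -1.71 ± 0.13 (SE), with an adjusted p in edgeR of 1.56e-11. FMg000991 (B0S6M0) ran from 5.44 to 8.61 CPM in controls (median 7.33), from 1.25 to 2.697 with bifenthrin (median 1.95) and from 3.35 to 7.55 with copper sulfate (median 5.301). The bifenthrin larvae lay below every other larva, and the log2 fold change was -1.41 ± 0.14 (SE), with an adjusted p in edgeR of 1.36e-09. For each of these 3 genes all 10 bifenthrin larvae lay below the lowest copper sulfate larva.

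Over the 160 members called lower in bifenthrin, the log2 fold change against copper sulfate had a median of -0.95 and ran from -1.92 to -0.27. It exceeded a 2-fold difference in 70 of them, and the same count over all tested models is not given here. Their median ratio to control was 0.353 in bifenthrin and 0.711 in copper sulfate larvae. The 82 members that missed the threshold had a median log2 fold change of -0.15, a range from -0.66 to 0.38 and a median SE of 0.14. Their median ratios were 0.635 in bifenthrin and 0.710 in copper sulfate larvae. The called and uncalled members had nearly the same median ratio for copper sulfate and differed in that for bifenthrin. They were divided by the difference between the chemicals, and the copper sulfate ratios of the members lay in a narrow band. A split mainly on the bifenthrin ratio therefore follows from that division. Mean counts were alike, with a median of 142.3 in the 160 and 131.0 in the 82.

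The 3 members with the smallest p on the opposite side did not reach the threshold. FMg008735 (Q7T1C0) had medians of 14.9 CPM in controls, 12.1 with bifenthrin and 10.5 with copper sulfate, with overlapping ranges and a log2 fold change of 0.18 ± 0.12 (SE), with an adjusted p in edgeR of 0.277. For FMg018248 the log2 fold change was 0.38 ± 0.29 (SE), with an adjusted p in edgeR of 0.348. FMg013203 (Q1L8P9) had medians of 16.5, 11.5 and 10.9 CPM in controls, with bifenthrin and with copper sulfate, and a log2 fold change of 0.16 ± 0.13 (SE), with an adjusted p in edgeR of 0.405.

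The 3 members with the highest mean CPM, which is not corrected for transcript length, behaved in different ways. FMg015327 (B2GQZ3 and Q9I8L5) ran from 168.9 to 375.8 CPM in controls (median 231.1), from 125.6 to 199.3 with bifenthrin (median 167.3) and from 90.5 to 265.7 with copper sulfate (median 151.7). The copper sulfate larvae spread widely on both sides of the bifenthrin larvae, and the log2 fold change between them was -0.01 ± 0.18 (SE), with an adjusted p in edgeR of 0.969. FMg006818 (Q6IMW5) had medians of 228.3, 149.5 and 152.3 CPM in controls, with bifenthrin and with copper sulfate and a log2 fold change of 0.08 ± 0.15 (SE), with an adjusted p in edgeR of 0.743. FMg002440, which has no accession, ran from 150.6 to 265.9 CPM in controls (median 205.2), from 76.4 to 129.5 with bifenthrin (median 120.5) and from 126.4 to 227.5 with copper sulfate (median 159.2). Here 9 bifenthrin larvae lay below the lowest copper sulfate larva, with a log2 fold change of -0.59 ± 0.12 (SE), with an adjusted p in edgeR of 0.000271.

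FMg002440 also lay just inside the limit, since its copper sulfate ratio was 0.769. The other members nearest to the limit were FMg009403 (Q08BS4), with ratios of 0.409 for bifenthrin and 0.769 for copper sulfate, and FMg001732 (B8A5U4), with 0.542 and 0.769. The models that just missed it had copper sulfate ratios of 0.771 (FMg018930, F1QZ60) and 0.772 (FMg000049, F1RAN4, and FMg006685, P47792). Their bifenthrin ratios were 0.381, 0.453 and 0.631. For all 6 the limit acted through the copper sulfate ratio.

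Single larvae differed in how many members were low. Each bifenthrin larva had between 209 and 231 of the 242 members below the lowest control larva, with a median of 218. Copper sulfate larvae had between 61 and 208, with a median of 158. Replicate 7 held the highest number and replicate 5 the lowest, and the next lowest copper sulfate larva had 110. Summed over the members, the level was 5892 to 7244 CPM in controls, 2642 to 3760 CPM with bifenthrin and 4165 to 5538 CPM with copper sulfate, and these 3 ranges did not overlap. The rule chose members that were lower than controls with each chemical. It set no order between the chemicals, but it used both ratios of these same larvae, so their order is a description. As a median over members of log2(CPM + 1) minus the control mean, the larvae ran from -1.29 to -0.84 in bifenthrin, from -0.69 to -0.08 in copper sulfate and from -0.21 to 0.09 in control. The lowest controls were replicates 13 and 2, at -0.21 and -0.14. Control replicate 13 was the lowest control larva for 74 of the 242 members, so it set the lower edge of the control range for many of them.

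Copper sulfate replicate 5 stood nearest to the controls in its group. Over the 160 members called lower in bifenthrin its median deviation from controls was 0.02, against -0.76 to -0.36 in the other 10 copper sulfate larvae and -1.62 to -1.02 in bifenthrin larvae. Over the other 82 members it was -0.34, the value nearest to the controls in its group, where the other copper sulfate larvae ran from -0.57 to -0.42 and bifenthrin larvae from -0.69 to -0.46. Replicate 5 was the highest copper sulfate larva for 102 of the 160 members, or 63.8%, and for 16 of the 82, or 19.5%. It was at or above the control mean for 85 of the 160 and for 9 of the 82. The values of replicate 5 entered that division of the members, because a high copper sulfate larva widens the difference between the chemicals. When the members were divided by a fit that left replicate 5 out, its median deviation was 0.02 over the 157 members called lower in bifenthrin and -0.33 over the other 85. The other copper sulfate larvae then ran from -0.76 to -0.37 and from -0.59 to -0.39. Replicate 5 was the highest of its group for 63.1% of the 157 and 22.4% of the 85. In 10 members it exceeded every control larva. The same count over all tested models is not given here, so nothing is read from the 10. In FMg024960 (A0JMQ2), 1 of the 10, replicate 5 had 11.6 CPM. The other copper sulfate larvae had at most 4.99 CPM there, and controls at most 11.3 CPM. Its total count, 15495326, lay inside the range of the other larvae, and its median deviation over all models in the count range was -0.01. FMg003660, the model with the smallest p for a lower level in copper sulfate than in control larvae and not a member, stood at 157.9 CPM in replicate 5. That value was the highest of the copper sulfate larvae, whose lowest was 69.6 CPM, and lay below the lowest control at 254.8 CPM. The value of replicate 5 entered the choice of FMg003660, so its place below the controls is a description. Without replicate 5 the members' median log2 ratio for copper sulfate was -0.54. In that fit 157 members were called lower in bifenthrin than in copper sulfate, as were 3350 of all 21143 tested models.

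**Figure D4:**
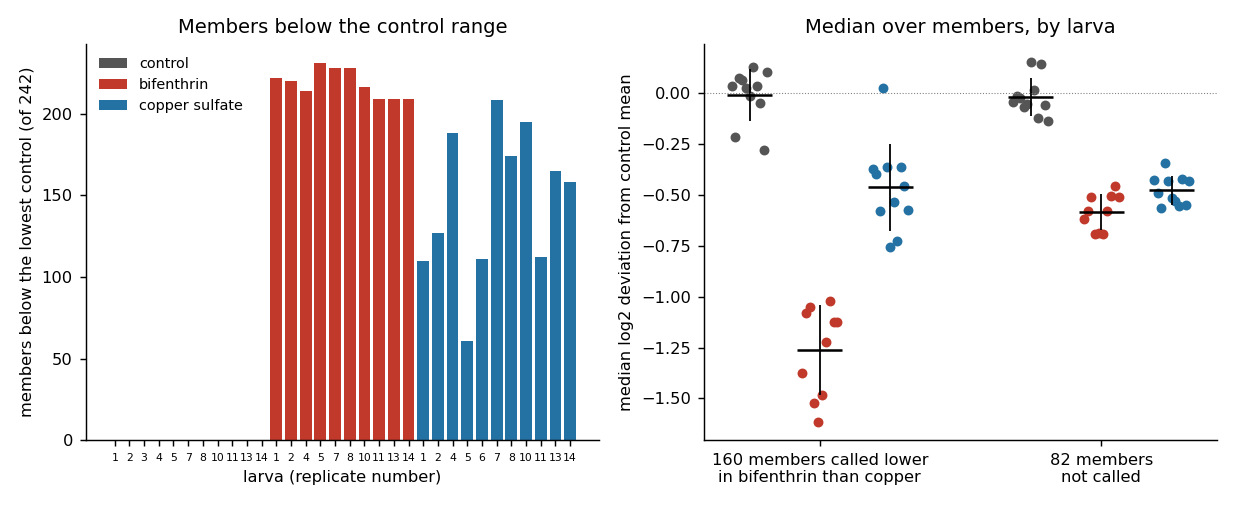
Left, the number of the 242 members below the lowest control larva in each larva (0 in controls by definition). Right, each larva's median over members of log2(CPM + 1) minus the control mean (points), with the group mean and SD as lines, shown separately for the 160 members called lower in bifenthrin than in copper sulfate and the 82 others. Bifenthrin larvae lie between -1.62 and -1.02 for the 160 members, and the single copper sulfate larva at 0.02 is replicate 5.

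Members also moved together from larva to larva inside a group. The rule set no condition on such shared movement, but it used the levels of the same single larvae. Copper sulfate replicate 7 lay below the lowest control in 86.0% of members and replicate 5 in 25.2%. Members could thus be chosen through the same low larvae, and the part of the choice in the correlations below was not tested. The median correlation (Pearson's r) over all pairs of members was 0.094 in the 11 controls, 0.278 in the 10 bifenthrin larvae and 0.248 in the 11 larvae kept in copper sulfate. Over all pairs of models in the count range it was 0.062, 0.013 and 0.053. The shared movement was seen in the 160 members called lower in bifenthrin, with 0.240 in controls, 0.458 with bifenthrin and 0.449 with copper sulfate. For the other 82 members the medians were 0.090, 0.040 and 0.011. Each r rests on 10 or 11 larvae, the genes share libraries and totals, and the same larvae divided the 160 from the 82, so these medians are a description. Without copper sulfate replicate 5 the median over the 160 members in copper sulfate larvae was 0.294, and without control replicate 13 it was 0.144 in controls. In bifenthrin larvae it stayed between 0.398 and 0.490 whichever larva was left out.

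**Figure D5:**
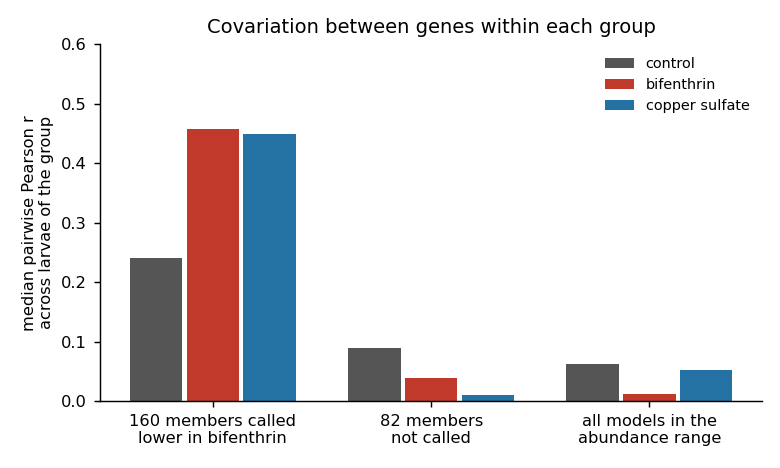
Median Pearson's r over all pairs of genes, across the larvae of each group (11 control, 10 bifenthrin, 11 copper sulfate), from log2(CPM + 1), for the 160 members called lower in bifenthrin than in copper sulfate, the other 82 members and all models in the count range. Bars for the 160 members stand at 0.240, 0.458 and 0.449, and the other bars are at or below 0.090.

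In bifenthrin larvae the larva with the lowest level was often the same one. Replicate 7 was the lowest bifenthrin larva for 67 of the 160 members and for 11 of the 82, and replicate 8 for 37 and 11. In copper sulfate larvae replicate 7 was lowest for 48 of the 160 and replicate 10 for 41, against 9 and 11 of the 82. Members varied more between exposed larvae than other genes did. The median coefficient of variation over members was 18.4% in controls, 24.6% with bifenthrin and 24.2% with copper sulfate. Over all models in the count range it was 17.6%, 15.2% and 17.5%. The members have fewer counts in exposed larvae by choice, and the part of the count level in these values was not tested.

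The members stood somewhat lower in lane 6 than in lane 7 among copper sulfate larvae. The number of members below the lowest control ran from 110 to 208 in the 5 larvae of lane 6 (median 188) and from 61 to 174 in the 6 larvae of lane 7 (median 119.5). These ranges overlapped widely. For bifenthrin it ran from 209 to 228 in lane 6 and from 209 to 231 in lane 7. In the edgeR fit of all larvae, 0 members were called between lanes, as were 0.0% of all tested models. At an unadjusted p under 0.05, 35 members, or 14.5%, were higher in lane 7 and 0 lower, beside 11.9% of all tested models in both directions together. By direction, 1278 of the 16456 tested models in the count range were higher in lane 7 and 915 lower. The limma-voom fit also called 0 members between lanes, and 0 of all 21174 tested models. DESeq2 called 0 members too, but it gave an adjusted p for only 8038 models, of which 9 were called higher and 11 lower. How many members were among the 8038 is not given here, so nothing is read from that 0. The lane coefficient was positive in 193 members, with a median of 0.11, against 0.00 over all tested models. It was positive in 8586 of the 16456 tested models in the count range. The difference between groups was not found to depend on lane in the edgeR interaction test, which called 0 members and 0.0% of all models. At an unadjusted p under 0.05 it gave 6 members, or 2.48%, against 637 of all 21174 models. DESeq2 and limma-voom called 0 members for the interaction, and also 0 of all 21171 and 0 of all 21174 tested models. Within single lanes, 100 members were called lower in bifenthrin than in copper sulfate from lane 6 alone, where 5.6% of all tested models were, and 133 from lane 7 alone, where 9.41% were. The median log2 ratio to control was -1.07 and -1.11 for bifenthrin, and -0.60 and -0.42 for copper sulfate, in lanes 6 and 7.

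A protein accession was listed for 228 members, and 14 had no annotation, or 5.79%, against 5.18% of the models in the count range. Together the 228 carried 247 distinct accessions. None of the members carried an enzyme class number, which 83 models of the table did. Only 1 accession, Q6NUV6, was shared by members, the neighbouring model numbers FMg015035 and FMg015036. Their ratios to control were 0.694 and 0.708 for bifenthrin and 0.745 and 0.725 for copper sulfate. Whether reads shared between such models were split in the counting was not tested. The members FMg002991 and FMg002992 and the members FMg008375 and FMg008376 also had neighbouring numbers, with bifenthrin ratios of 0.616 and 0.288 in the first pair and 0.641 and 0.303 in the second.

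Accessions of 31 members were also listed for 51 other models. Only 17 of the 51 had a mean count in the range of the rule. The part of the count level in the calls below was not tested. Of the 51 models, 39 could be tested. Their edgeR log2 fold changes had medians of -0.14 for bifenthrin against control, -0.15 for copper sulfate against control and 0.10 for bifenthrin against copper sulfate. At an adjusted p under 0.05 against control, 7 of the 39 were called lower and 4 higher with bifenthrin, where 4276 of all 21174 models were called lower and 3820 higher. With copper sulfate 4 of the 39 were called lower and 0 higher, where 422 of all models were called lower and 759 higher. Between the chemicals 2 of the 39 were called lower and 2 higher in bifenthrin, where 3621 of all 21174 models were called lower and 3147 higher. Other models that share A0JMQ2 with the member FMg024960 lay on both sides of control. The most abundant of them by mean count, FMg024961 and FMg005103, were lower. Their log2 ratios to control were -0.30 and -0.71 for bifenthrin and -0.51 and -0.75 for copper sulfate. FMg025079 was higher, with log2 ratios of 1.13 for bifenthrin and 0.70 for copper sulfate. The ratios of FMg024960, not in log2, were 0.587 and 0.687.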

How the data were processed

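The authors deposited 1 table of raw counts per gene model and larva, in whole numbers without normalization. Per the submitters' processing notes, STAR, limma and bcl2fastq 2.19.1 were used, in roles not stated there. For genome build, annotation, counting tool and strand handling, nothing is stated in the labels or file header. Columns were matched to larvae through the description labels. The least different pair of larvae had a chi-square of 9.41 per degree of freedom over genes, so none was treated as a repeat library. The counts are from 32 single larvae, and p-values measure the spread between these larvae.

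The 242 members, the lists of genes and the naming rule were chosen with earlier results of these data known. CPM was computed on library totals. Deviations and correlations used log2(CPM + 1). Genes were filtered with filterByExpr, which kept 21174 models with 99.92% of counts, and scaled by TMM. The 3 groups and the lanes were fitted together in edgeR 4.0.16 (R 4.3.3), with its quasi-likelihood F test and p-values adjusted by Benjamini-Hochberg over all tested models at 0.05. The SE was taken as the absolute log2 fold change over the root of F. The test was checked on simulated counts with few changed genes and larvae drawn independently, so that check does not cover larvae that share a beaker. Interactions of lane and group were tested with an F test of both terms. DESeq2 1.42.0 and limma-voom (limma 3.58.1) were alternatives. Summaries and figures used Python 3.11.15.

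Named are members with all exposed larvae of both groups below the lowest control (there were 0), the 5 with the lowest ratio for each chemical, the 3 with the smallest p in each direction between the chemicals, the 3 with the highest mean CPM, and the 3 models on either side of the ratio limit. Members with an enzyme class number would have been named, and there were 0. FMg024960, FMg025079, FMg024961, FMg005103, FMg003660 and the neighbouring models were singled out after their values were seen. Members were divided into those called and not called between the chemicals after that test was seen. Lists by enzyme class held 0 members. Of them, only ribonucleases had at least 5 tested models, 14 in number. Their median log2 fold changes were 0.52 for bifenthrin against control, 0.15 for copper sulfate against control and 0.34 between the chemicals. In these comparisons 4, 1 and 2 of the 14 were called higher and 0 lower, where 3820, 759 and 3147 of all 21174 models were called higher. In an identifier table from RefSeq, 0 model numbers and 0 accessions matched, so symbols, functions and sequences are not used here.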

Additional observations from a re-analysis of the deposited data

Results flagged for a closer look

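FMg008519 had 4.87 CPM in bifenthrin replicate 13, the highest of the 10 bifenthrin larvae, and the gap to the next larva was large relative to the range of the group. Of 27 sets of bifenthrin values examined in this way, 1 was marked, and chance marks about 1 in 20. The other groups had more than 10 larvae and were not examined. Without this larva the log2 fold change of FMg008519 for bifenthrin against copper sulfate was -1.55, and it was -1.38 in all larvae.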

How the results depend on the processing

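Under every alternative run for each test, 0 members were called higher in bifenthrin than in copper sulfate, between lanes or for the interaction. Over all tested models, 1439 to 3412 were called higher in bifenthrin, and 0 for the interaction. Between lanes 0 models were called, apart from 1 without bifenthrin replicate 13 and 9 higher and 11 lower in DESeq2. For the lanes, DESeq2 gave an adjusted p for only 8038 models. The count called lower was 150 to 164 with each larva left out, 160 with DESeq2, 158 with limma-voom, 133 in lane 7 alone and 100 in lane 6 alone. The replicate block gave 152. Over all tested models, 3288 to 3723 were called lower with each larva left out. The number was 3539 of 21166 with DESeq2, 3547 of 21174 with limma-voom and 3240 of 21098 with the replicate block. In lane 7 alone it was 1999 of 21243, and in lane 6 alone 1191 of 21260. The groups share replicate numbers, but deviations of same-numbered bifenthrin and copper sulfate larvae from their group means had a median correlation of 0.064, with 4 of 10 pairs above 0.1 and 3 of 10 closest to their own number, so the numbers were not taken to pair larvae. The number of genes that meet the rule was 137 on TMM-scaled CPM, 133 of them members, and 134 on DESeq2-scaled CPM, 129 of them members. It was 99 at a ratio limit of 0.70 and 620 at 0.85. It was 389 with at least 3 larvae below the lowest control and 56 with at least 8. It ran from 182 without copper sulfate replicate 7 to 325 without control replicate 13. The median log2 ratio of the members ran from -1.10 to -1.04 for bifenthrin and from -0.54 to -0.47 for copper sulfate with each larva left out. On TMM and DESeq2 scaling it was -1.01 and -0.997 for bifenthrin and -0.42 and -0.42 for copper sulfate. Among the named members, FMg001071 at -1.12 and FMg001732 at -0.30 missed the threshold in lane 6 alone, where FMg016445 at -1.07 passed it. FMg016445 missed it in all larvae at -0.66 (edgeR adjusted p = 0.0535) and passed it when any 1 of 6 larvae was left out. Reversals were found for 3 members whose log2 fold change was near 0. FMg023278 was -0.01 and became 0.0035 with DESeq2 size factors, 0.0027 on library totals, 0.0048 with a mean count of at least 50, 0.0067 with the exposed larvae alone, 0.21 in lane 6, 0.0023 in DESeq2 and 0.14 in limma-voom, with -0.13 to 0.14 over single larvae left out. FMg014598 was also -0.01 and became 0.0030 with DESeq2 size factors, 0.0051 with a mean count of at least 50, 0.011 with the exposed larvae alone, 0.047 with the replicate block, 0.36 in lane 6 and 0.0003 in DESeq2, with -0.13 to 0.28 over larvae. FMg015327 became 0.0018 on library totals, 0.0021 with a mean count of at least 50, 0.066 with the replicate block, 0.0084 with the exposed larvae alone, 0.15 in lane 6 and 0.080 in limma-voom, with -0.073 to 0.091 over larvae. Their SE was 0.25, 0.30 and 0.18. The causes of the reversals and the part of depth in these SE were not tested. Leaving larvae out of the correlations, and dividing the members without copper sulfate replicate 5, were chosen after seeing the data.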
